A study of Arabidopsis thaliana with 2 samples.

Results

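Poly(ADP-ribose) polymerases (PARPs) sense DNA strand breaks. They use NAD+ to attach chains of ADP-ribose to themselves and to other proteins at the break, and these chains recruit and release repair factors until glycohydrolases remove them. Arabidopsis thaliana has 3 genes of this name, PARP1 (AT2G31320), PARP2 (AT4G02390) and PARP3 (AT5G22470). Whether all 3 encode enzymes with this activity was not examined here. The genes were taken by locus from the annotation column of a list of chromatin immunoprecipitation sequencing (ChIP-seq) peaks. PARP2 and PARP1 were named, each for 1 peak, and PARP3 had no line. These 2 genes and 2 peaks stand among 1513 genes and 778 peaks in all.

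The peak list came from 1 library of whole wild-type Col-0 plants, 2 weeks old, that carried a Myc-tagged SOG1 driven by its own promoter. The treatment was 15 µM zeocin, a bleomycin-type compound that cuts DNA, for 2 h, and anti-Myc antibody was used for the precipitation. SOG1 (SUPPRESSOR OF GAMMA RESPONSE 1) is the NAC transcription factor at the head of the transcriptional response to DNA damage in plants, and the study set out to find its target genes. The second library of the series, from untagged Col-0 plants with the treatment label mock, was precipitated with the same antibody and its values were not analysed here. The label mock stands against a treatment text that mentions zeocin for both samples, and the label was followed.

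With 1 library in each group there was no replicate and no test between conditions. The tagged and untagged plants differ in both transgene and drug, so an effect of the tag and an effect of the drug cannot be told apart. The tagged plants were wild type for SOG1, by their label, and whole plants mix cell types. The fold enrichment, read count, Decibel Score and false discovery rate (FDR) of each peak were the authors' values and are used here only to describe and rank peaks within this list. No source used here states what the fold enrichment is relative to or how the score is calculated. Intervals on read counts are exact Poisson 95% intervals and cover counting error only. Positions are those of the list, on TAIR10.

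PARP2 was named for one of the strongest peaks of the list. PARP2 is a nuclear enzyme activated by DNA breaks, and its peak ran from 1049120 to 1050765 on chromosome 4, over 1645 bp. It held 334 reads (95% interval 299 to 372) and had a fold enrichment of 17.1 and a Decibel Score of 1260. It ranked 4 of 778 peaks by fold enrichment, 7 by Decibel Score, 16 by reads and 8 by reads per kb. Its fold enrichment was 3.95 times the median of all peaks, which was 4.33, and its read count was 4.45 times the median of 75 reads. The peak was thus high on each of the 4 measures, and lowest in rank on the raw read count.

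PARP1 had a wider and less enriched peak. PARP1, the relative with the zinc fingers that bind broken DNA ends, was named for a peak of 2015 bp on chromosome 2, from 13359020 to 13361035. This peak held 303 reads (95% interval 270 to 339), with a fold enrichment of 9.79 and a Decibel Score of 538. It ranked 26 of 778 by fold enrichment, 26 by Decibel Score, 20 by reads and 33 by reads per kb. Its fold enrichment was 2.26 times the median of all peaks and its read count 4.04 times that median.

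The PARP2 peak and the PARP1 peak held similar numbers of reads but differed in reads per kb, fold enrichment and Decibel Score. The ratio of reads, PARP2 over PARP1, was 1.10, with an exact 95% interval of 0.941 to 1.29 that includes equality. Per kb of peak the PARP2 peak had 203 reads and the PARP1 peak 150 reads, a ratio of 1.35 (interval 1.15 to 1.58). This interval takes the listed peak lengths as known without error, although they come from the same library as the reads. The fold enrichment of the PARP2 peak was 1.74 times that of the PARP1 peak, and its Decibel Score 2.34 times. The fold and the score come with no error, so whether these ratios exceed the spread between libraries was not tested. Together the 2 peaks took 0.814% of the 78249 reads that lay in peaks.

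**Figure D1:**
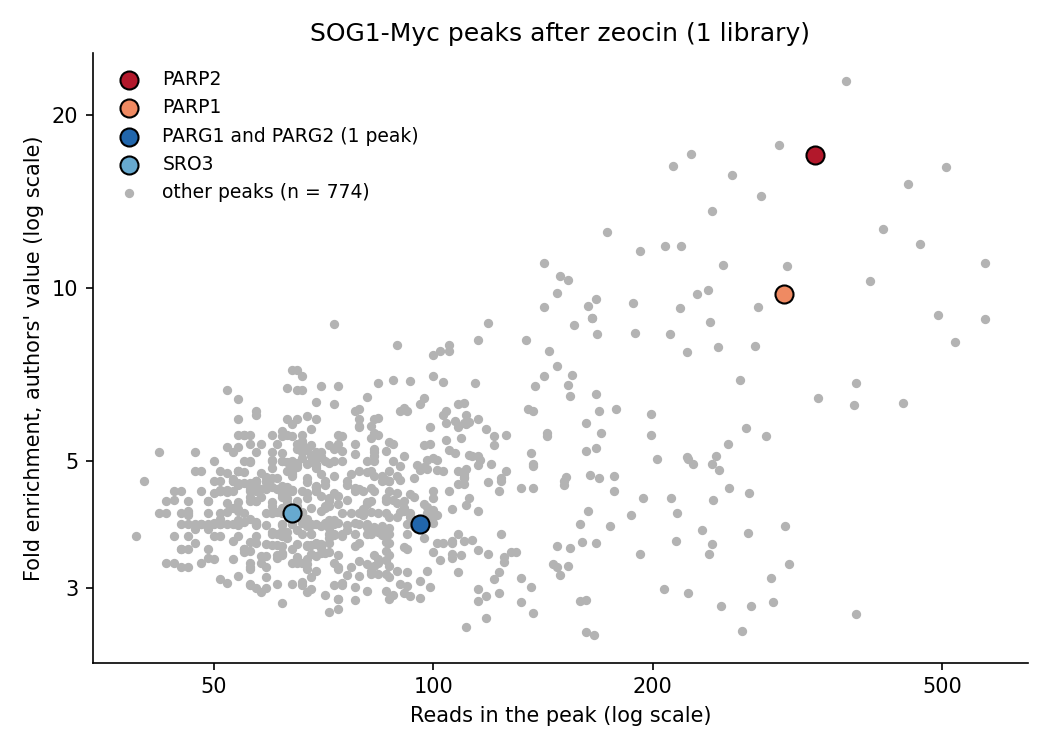
Each point is 1 of the 778 peaks of the tagged, zeocin-treated library, with its reads on the horizontal axis and its fold enrichment on the vertical axis, both on a log scale. The PARP2 peak (334 reads, 17.1-fold) and the PARP1 peak (303 reads, 9.79-fold) lie at the upper right, and the peak of PARG1 and PARG2 (96 reads, 3.88-fold) and that of SRO3 (64 reads, 4.06-fold) lie among the bulk of the list.

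Both PARP peaks were wide, and wider peaks tended to hold more reads in the length windows compared here. Length and reads come from the same library, so how far either follows from the other was not tested. The median length of all peaks was 837 bp, and the PARP1 peak ranked 39 and the PARP2 peak 63 of 778 by length. Among the 35 peaks within 10% of the length of the PARP2 peak, the peak itself included, it was the highest by reads and by fold enrichment, against medians of 162 reads and 4.03-fold. Among the 20 peaks within 10% of the length of the PARP1 peak, that peak ranked 4 by reads and 2 by fold enrichment, against medians of 229 reads and 5.16-fold. The 10% window was chosen after the values were seen.

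The summit, the highest point of a peak, was listed for each, here read as a distance from the peak's start. In the PARP2 peak it lay 966 bp from the start, at 58.7% of the length, near the median of 51.2% over all peaks. In the PARP1 peak it lay 619 bp from the start, at 30.7% of the length, so 1396 bp of that peak lay beyond its summit.

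The peaks next to them in fold enrichment named genes of other kinds. Just above PARP2, at 17.1-fold, stood the peak of NAC085, a NAC factor gene related to SOG1 that is also written ANAC085, with AT5G14495. Just below it, at 16.3-fold, stood a peak that named VPS34, DRP4C, DRP4D and AT1G60520. The peak just above PARP1, at 9.80-fold, named AT5G42210 alone, and the one just below, at 9.77-fold, named AT2G45460 and the growth-regulating factor gene GRF9. The NAC085 peak had 226 reads over 1099 bp, so the PARP2 peak reached the same fold enrichment with more reads over a longer stretch.

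The list's FDR was 0.286 for the PARP2 peak and 0.154 for the PARP1 peak, against a median of 0.147 over all peaks. The lowest FDR of any listed peak was 0.116, so every gene counted here as named had a peak with at least that FDR. The more enriched of the 2 peaks thus had the higher FDR. A q-value would not rise with the score, so the FDR is not read as one here. The FDR multiplied by the rank by Decibel Score came to whole numbers, 2 for the PARP2 peak and 4 for the PARP1 peak. It came to 22 for the peak of PARG1 and PARG2 and to 70 for that of SRO3. For these peaks the FDR thus equals a whole number divided by the rank, which makes it coarse at the top of the list. What the whole number counts is not stated. No peak was chosen by its FDR here.

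**Figure D2:**
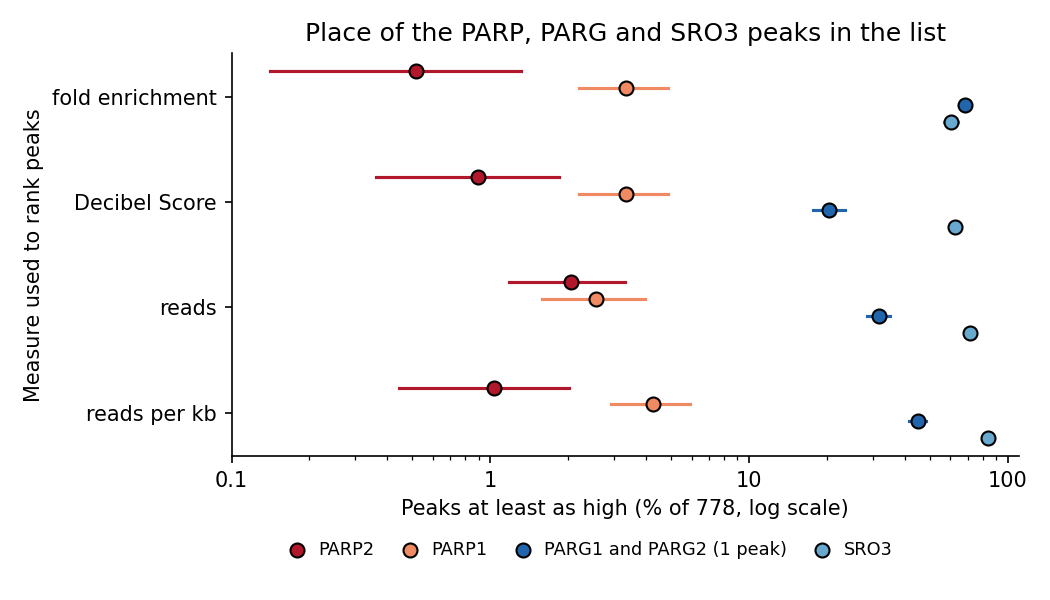
Points give the percentage of the 778 peaks that were at least as high as the named peak (horizontal axis, log scale, lower means stronger) for 4 measures of strength (vertical axis), and bars are exact 95% binomial intervals. A rank is a fixed place in this list, so the bars do not measure a spread between libraries or the error of a peak's strength. PARP2 stands between 0.514% (fold enrichment) and 2.06% (reads) and PARP1 between 2.57% (reads) and 4.24% (reads per kb), and the PARG and SRO3 peaks lie further right on each measure.

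Neither PARP gene was the only gene named for its peak. The PARP2 peak also named SAG21 (AT4G02380), a senescence-associated gene of the late embryogenesis abundant type, and AT4G02400. In the gene order of the reference table SAG21 is the nearest protein-coding locus before PARP2 and AT4G02400 the nearest after it, so the peak named one neighbour on each side. The microRNA locus MIR2936, which the table places between SAG21 and PARP2, was not named, nor was AT4G02405, the locus after AT4G02400.

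The PARP1 peak named neighbours on one side only. These were AT2G31335 and emb1381 (AT2G31340), a gene known from embryo-defective mutants, the 2 loci that follow PARP1 in the gene order. LBD14 (AT2G31310), a LOB domain gene and the locus just before PARP1, was not named, nor was the non-coding locus AT2G08430 before it. Which of the 3 genes at either peak SOG1 acts on cannot be read from the list.

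Naming 3 genes was common, in 176 of 778 peaks (22.6%), while 199 peaks named a single gene. Among those 176 peaks PARP2 ranked 2 and PARP1 ranked 9 by fold enrichment, against a median of 4.22-fold. By reads they ranked 7 and 8, against a median of 82 reads.

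The authors' symbols for these genes are the reverse of those used here. The list writes ATPARP1 for AT4G02390 and PARP2 for AT2G31320. The reference table gives PARP2 and PARP1 as the symbols of these loci, and records ATPARP1 for AT4G02390 and ATPARP2 for AT2G31320 among their synonyms. Any statement by symbol therefore depends on which naming is meant, and the loci do not.

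PARP3, the family member known in Arabidopsis from seeds, was not named for any peak. The gene lay in a stretch of chromosome 5 without a listed peak, between the peak of RFC1 (4.43-fold, ending at 7287777) and a peak that named AT5G22620, ADT5 and emb1211 (5.02-fold, starting at 7524366). RFC1 (AT5G22010) encodes the large subunit of the clamp loader of DNA replication, ADT5 an arogenate dehydratase, and emb1211 a subunit of the chloroplast inner envelope translocon. This stretch was 236588 bp long, and 144 of 773 distances between adjoining peaks (18.6%) were at least as long, against a median of 84280 bp.

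In the gene order, 18 protein-coding loci lay between PARP3 and the nearest named locus, AT5G22620, and 46 lay between PARP3 and RFC1 on the other side. The 2 loci on each side of PARP3 were AT5G22450 and AT5G22460 before it and AT5G22480 and AT5G22490 after it, and none of them was named. Of 26075 protein-coding loci that were not named, 42.4% lay at least as far from a named locus as PARP3 did, so its distance was an ordinary one. The lowest read count of any listed peak was 39, and the lowest fold enrichment, at a different peak, was 2.49. Library depth is not known, and a weaker signal at PARP3 would not appear in the list.

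The PARP2 peak stood apart from other peaks by more than most. Its nearest neighbour lay 113447 bp away, a 6.11-fold peak of 137 reads that named AT4G02110, and on the other side the next peak was 331492 bp away. Of all 778 peaks, 16.1% lay as far or farther from their nearest peak, against a median of 36697 bp. The PARP1 peak lay 42324 bp from its nearest neighbour, a 4.92-fold peak that named no gene, and 46.4% of peaks lay at least as far. Neither gene had another peak in the list.

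**Figure D3:**
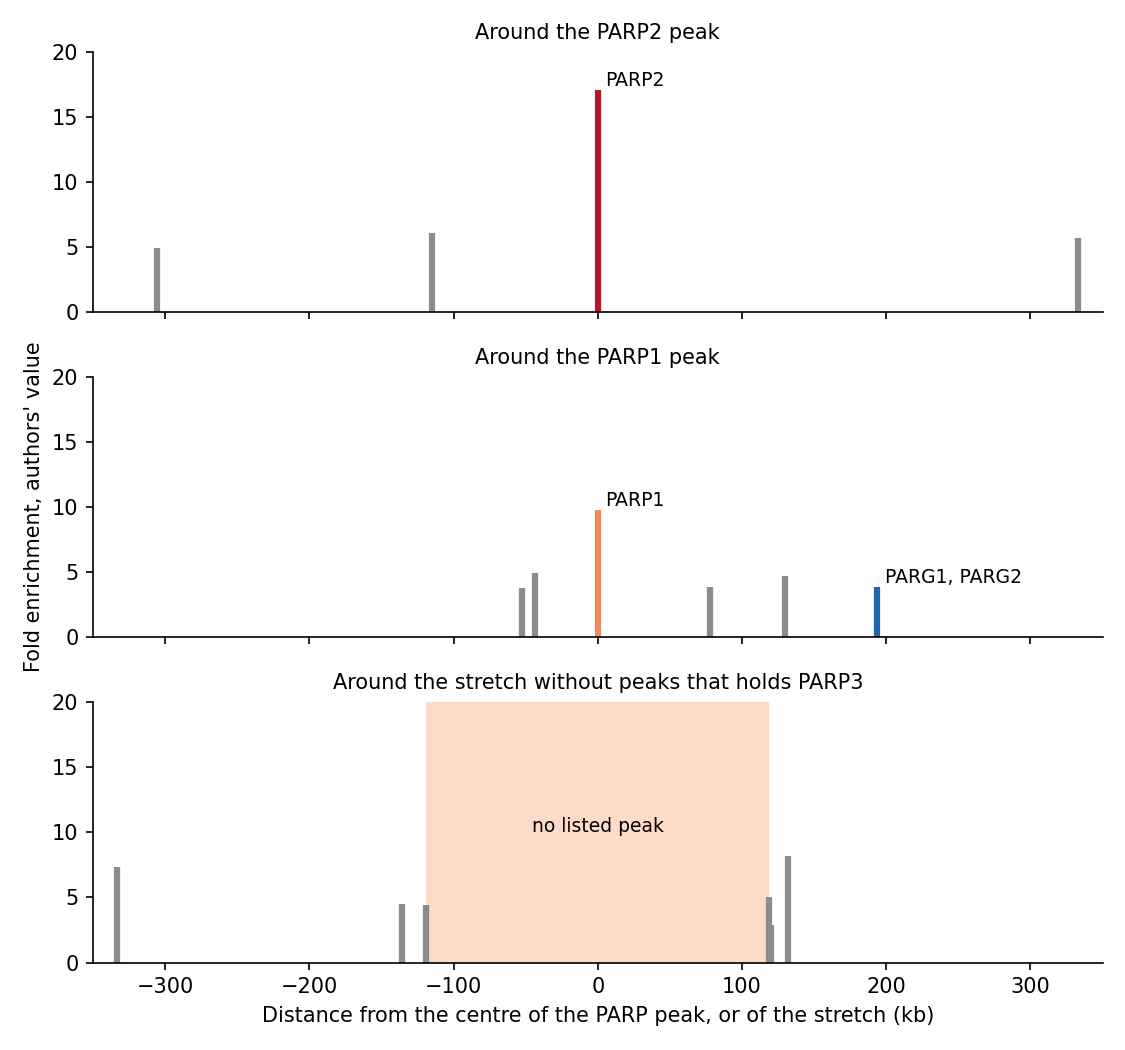
Bars give the fold enrichment of the listed peaks (vertical axis) by their distance in kb (horizontal axis) from the centre of the PARP2 peak, of the PARP1 peak, and of the stretch of 236588 bp without a peak (shaded) that holds PARP3 in the gene order. The PARP2 peak (17.1-fold) and the PARP1 peak (9.79-fold) are the tallest in their panels, and the peak naming PARG1 and PARG2 (3.88-fold) lies in the PARP1 panel.

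As a background, 4.99% of the 27444 protein-coding loci in the reference table were named for any listed peak. Of the 3 PARP genes 2 were named (66.7%, exact 95% binomial interval 9.43 to 99.2). Both were named for peaks of at least 5-fold enrichment, where the share of protein-coding loci was 1.45%, and for peaks among the 389 strongest by fold enrichment, where it was 2.51%. Peaks naming a single gene held 0.66% of protein-coding loci and 0 of the 3 PARP genes. When a locus next to a named one was also counted, the share of protein-coding loci was 9.1%, and PARP3 was still not among them. The interval is wide because the family has 3 members, and the members were chosen with results of these data known, so the count is a description.

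A list of 23 genes around poly(ADP-ribose) and break repair was set beside the PARP genes. Of these, 3 were named (13%, exact interval 2.78 to 33.6), against 4.99% of protein-coding loci, and their peaks were weaker than those of PARP2 and PARP1. Among the 3, the neighbours PARG1 and PARG2 were named for the same peak, while the interval treats genes as independent. For peaks of at least 5-fold, 0 of 23 list genes were named (interval 0 to 14.8%), against 1.45% of protein-coding loci. Each interval includes the share of protein-coding loci beside it, so neither count sets the list apart from protein-coding loci.

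Both genes for poly(ADP-ribose) glycohydrolase, the enzyme that takes the chains off again, were named, and for the same peak. PARG1 (AT2G31870, also called TEJ) and PARG2 (AT2G31865) are neighbours on chromosome 2. Their peak, from 13553418 to 13554482, held 96 reads (95% interval 77.8 to 117) with a fold enrichment of 3.88 and a Decibel Score of 139. It also named SOBIR1 (AT2G31880), a receptor-like kinase of plant immunity.

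By fold enrichment the PARG peak ranked 530 of 778, below the median, while by Decibel Score it ranked 159, by reads 247 and by reads per kb 349. Its place in the list thus depended on the measure, while the PARP1 peak ranked between 20 and 33 on the same measures. The PARG peak and the PARP1 peak lay 192382 bp apart on the same chromosome, with 2 other peaks and 55 protein-coding loci from PARP1 to PARG2 between them.

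Of the 6 genes of the RCD1 and SRO family, whose proteins carry a PARP-like domain and which are known for stress responses, only SRO3 (AT1G70440) was named. Its peak at chromosome 1, from 26550128 to 26550932, held 64 reads (95% interval 49.3 to 81.7) with 4.06-fold enrichment, and it ranked 470 by fold enrichment and 557 by reads. It shared this peak with AT1G70450. RCD1, SRO1, SRO2, SRO4 and SRO5 were not named. A count of 1 of 6 (16.7%, exact 95% interval 0.421 to 64.1) does not set this family apart from the 4.99% of protein-coding loci.

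None of the 4 listed genes of ADP-ribose and NAD metabolism was named. They were NUDT7, a hydrolase of ADP-ribose and NADH, and the nicotinamidase genes NIC1, NIC2 and NIC3, whose enzymes act on the nicotinamide that PARP reactions release. None of 6 single-strand break repair genes was named, which were the scaffold gene XRCC1, the DNA ligase gene LIG1, the tyrosyl-DNA phosphodiesterase gene TDP1, the apurinic endonuclease gene ARP, AT3G14890 and AT5G26680. None of 5 end-joining genes was named, which were KU70 and KU80 for the ring that holds broken ends, XRCC4 and LIG4 for the ligase complex, and AT4G32700. With so few genes a group, a count of 0 allows shares of up to 60.2%, 45.9% and 52.2% for these 3 groups in that order (exact 95% upper bounds). These bounds lie above the 4.99% of protein-coding loci named, so counts of 0 in groups of this size say nothing particular about these genes.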

How the data were processed

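ChIP-seq was done on 2 libraries, and 1 deposited peak list, of the tagged library after zeocin, was used. CASAVA 1.8.2 and the TAIR10 build appear in the submitters' processing notes. The aligner, peak caller and caller settings were not given in the sources used here. Per the file headers, the authors give each peak an unscaled read count, a fold enrichment (a ratio), a Decibel Score (a score) and an FDR. The FDR is not read as a q-value, because it was higher for the PARP2 peak than for the PARP1 peak, which had the lower Decibel Score.

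The 1645 deposited lines were merged into 778 peaks wherever position was identical. Listed lengths equal end minus start for 261 peaks and 1 more for 517, so edges are uncertain by 1 bp. Loci were the transcript identifiers before the dot. A RefSeq gene table of assembly TAIR10.1 matched 1483 of 1513 named loci (98%) and all 23 list loci. It served for names, classes and gene order, and no position from it is printed. DNA and protein sequences were not used here.

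Ranks count peaks at least as high. Intervals are exact (Poisson for reads, Clopper-Pearson for shares, conditional binomial for the ratio of reads), from SciPy 1.17.1 with pandas 2.3.3 in Python 3.11.15. The merging, ranking and spacing of peaks were tested on simulated peaks, and the interval for shares on a known case. The intervals for reads and for their ratio were not tested in this way. The members and lists were chosen with earlier results of these data known. Genes named were the PARP loci, their peak partners and neighbours in order, adjoining peaks by position and by fold enrichment, and list genes with a peak; list genes without a peak were named in addition.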

Additional observations from a re-analysis of the deposited data

How the results depend on the processing

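Of 16 values recomputed for 4 results, 11 stayed within the exact 95% interval of the reported share or within 1.5 times the reported count. For the ranks of the PARP peaks that interval was only a yardstick, because a place in the full list is not a random draw. The share of peaks at least as strong as the PARP2 peak was 0.514% by fold enrichment and moved to 2.06% by reads in the peak. It was 0.9% by Decibel Score, 1.03% by reads per kb and 0.547% over deposited lines, and for PARP1 it ran from 2.57% to 4.24% over the same settings, against 3.34%. Restricted to the 199 single-gene peaks, 0 of 3 PARP genes and 0 of 23 list genes were named, since the PARP, PARG and SRO3 peaks each name 2 or 3 genes. Against that, 0.66% of protein-coding loci were named for such peaks. The 3 named list genes fell to 0 among peaks of at least 5-fold and to 0 among the 389 strongest, where 2.51% of protein-coding loci were named, because their peaks lie below the median of 4.33-fold. PARP2 and PARP1 stayed named under both of these limits. Counting also the loci next to a named one added no PARP or list gene, although it raised the share of protein-coding loci to 9.1%. Searches for the SOG1 site in promoters, and their alternatives, were not run because no promoter sequence was used. No paired analysis was possible because each group has 1 library. Depth is not known, so weak binding at PARP3 and no binding there look the same in this list.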
